A study of Danio rerio with 2 samples.

Results

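Among the cells sorted for glucagon-promoter GFP from larval zebrafish islets, 95 were led by the insulin gene ins. Members were chosen by their own readout: a cell had to have at least 500 genes counted and at most 10% of its counts in mitochondrially encoded genes, ins had to carry the most counts among 8 islet hormone genes (ins, gcga, gcgb, sst1.1, sst1.2, sst2, ghrl and gip), and ins had to reach at least 1% of the counts. This rule found 41 of 156 passing cells in the control sample and 54 of 288 in the gcgr-/- sample, out of 576 cells sequenced. The high ins level of these cells is therefore how they were found and not a result.

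The cells came from hand-picked islets of larvae at 7 dpf (days post fertilisation). All larvae carried Tg(gcga:GFP), in which the zebrafish glucagon promoter drives GFP in α cells, and GFP-positive cells were sorted one by one into plates and read by a modified Smart-seq2 protocol. The gcgr-/- larvae carried disruptions of both glucagon receptor genes, gcgra and gcgrb, and the control larvae, with the same reporter, were wild type by their label. Each genotype was deposited as 1 sample, so no test between genotypes was possible: genotype values below are ratios of 2 samples, with intervals that cover counting error only.

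Insulin is made by β cells, stored as a crystal with zinc in dense-core granules, and released when glucose entry raises ATP, closes potassium channels and opens calcium channels. The zebrafish gene ins encodes the main preproinsulin of the larval islet. Pdx1 and Pax6 are transcription factors of the endocrine pancreas, and Pdx1 also maintains insulin transcription. Glucagon from α cells acts through its receptor on the liver, where it drives amino acid breakdown and glucose output. Loss of the receptor is known for raised amino acids and for more α cells in mice and zebrafish. A gate on glucagon-driven GFP is meant to hold α cells, so β cells within it are cells that the gate would not be expected to collect.

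Both samples were read to a like depth per cell. The 41 control cells held 1430724 counts in all, from 6972 to 145136 per cell with a median of 22994, and the 54 gcgr-/- cells held 1950843, from 2231 to 108301 with a median of 28358. Median numbers of genes counted were 990 and 969.5, and median mitochondrial shares 1.87% and 1.44%. Cell names carried a letter, A and B in the control and C to F in the gcgr-/- sample, whose meaning is not stated in the sources used here. It was read as a plate of sorted cells, so statements on plates are statements on these letters. No plate held both genotypes, so plate and genotype cannot be told apart. Both samples used the same 48 cell barcodes, each of them in more than 1 library. Of these the ins-led cells carried 27 in the control and 32 in the gcgr-/- sample. In a table that the authors had filtered to remove potential β and δ cells, 1 of the 95 remained, a gcgr-/- cell of plate C with 2231 counts, 3.59% of them ins.

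Ins-led cells made up 26.3% of passing control cells (exact Clopper-Pearson 95% interval 19.6% to 33.9%) and 18.8% of passing gcgr-/- cells (14.4% to 23.7%). By plate the share was 27.3% on A and 25.3% on B, against 22.7% on C, 20.5% on D, 13.6% on E and 17.9% on F. Every gcgr-/- plate was below both control plates, but the 2 sample intervals overlapped. Glucagon-led cells, in which gcga or gcgb led, numbered 3 in the control and 106 in the gcgr-/- sample, so the denominators differed in make-up and the shares cannot be read as numbers of β cells per islet. The cells were spread over the sort: 8 of 8 control libraries held 2 to 11 of them, and 15 of 16 gcgr-/- libraries held 2 to 7.

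The ins transcript took from 1.38% to 33.7% of a control cell's counts, with a median of 12.1%, and from 2.35% to 47.9% of a gcgr-/- cell's, with a median of 17.9%. Plate medians were 13.0% on A and 9.93% on B, then 16.1%, 18.7%, 16.4% and 20.2% on C to F. Cells of the samples overlapped broadly, while all 4 gcgr-/- plate medians lay above both control medians. Summed over cells, ins reached 156127 CPM (counts scaled to a total of 1000000) in the control and 200701 in the gcgr-/- sample, a ratio of 1.29. These cells held 90.4% of the ins counts of all passing control cells and 94.9% of those of passing gcgr-/- cells.

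**Figure D1:**
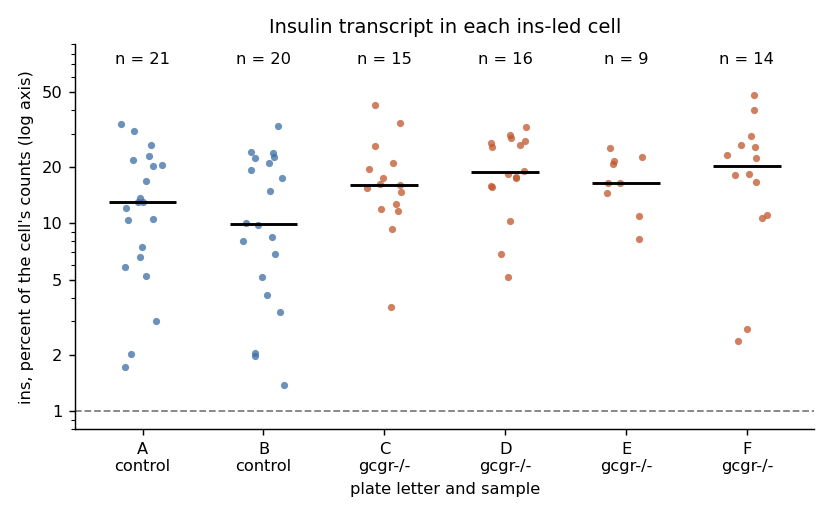
Share of a cell's counts in ins (percent) for each ins-led cell, by plate letter; black bars are plate medians and the dashed line is the 1% minimum of the rule. The control plates A and B have medians of 13.0% and 9.93%, and the gcgr-/- plates C to F have medians of 16.1% to 20.2%, with wide overlap of single cells.

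Cells outside the rule also carried ins, at a low level by class median. Median ins in control cells was 589 CPM when led by sst1.1, 366 when led by sst1.2 and 417 when no hormone reached 1%. In gcgr-/- cells the medians were 342 CPM in glucagon-led, 731 in sst1.1-led, 206 in sst1.2-led and 221 in no-hormone cells. At the edge of the rule, the lowest members had ins at 1.38% and 1.71% in the control and at 2.35% and 2.74% in the gcgr-/- sample. The highest ins share in a no-hormone cell was 0.592% in the control and 0.963% in the gcgr-/- sample. A further 15 cells had ins at 1% or more but were led by another hormone: 8 control cells, 6 led by sst1.1 and 2 by sst1.2, and 7 gcgr-/- cells, 4 led by sst1.1, 2 by glucagon and 1 by sst1.2. The highest ins share among them was 12.7% in a control sst1.1-led cell and 8.68% in a gcgr-/- glucagon-led cell. Both lay within the range of the members.

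Some members carried a second hormone at 1% of counts or more, 4 of 41 in the control and 12 of 54 in the gcgr-/- sample. In the control these second hormones were sst1.1 in 3 cells and ghrl in 1, where sst1.1 encodes a somatostatin precursor and ghrl ghrelin. In the gcgr-/- sample they were sst1.1 in 6 cells, gcga in 5 and ghrl in 1. The gcga cells all lay in the gcgr-/- sample, on 3 of its plates, with gcga at 1.08% to 4.84% of counts beside ins at 10.7% to 25.9%. Their depth was ordinary, with a median of 24124 counts and 862 genes against 28358 counts and 965 genes in gcgr-/- members with no second hormone. The sst1.1 cells were deeper: the 3 control cells had a median of 122584 counts and 1798 genes, against 22994 and 977, and the 6 gcgr-/- cells a median of 46279.5 counts and 1553 genes. No doublet caller was run, and the part of wells holding more than 1 cell in these values was not tested.

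**Figure D2:**
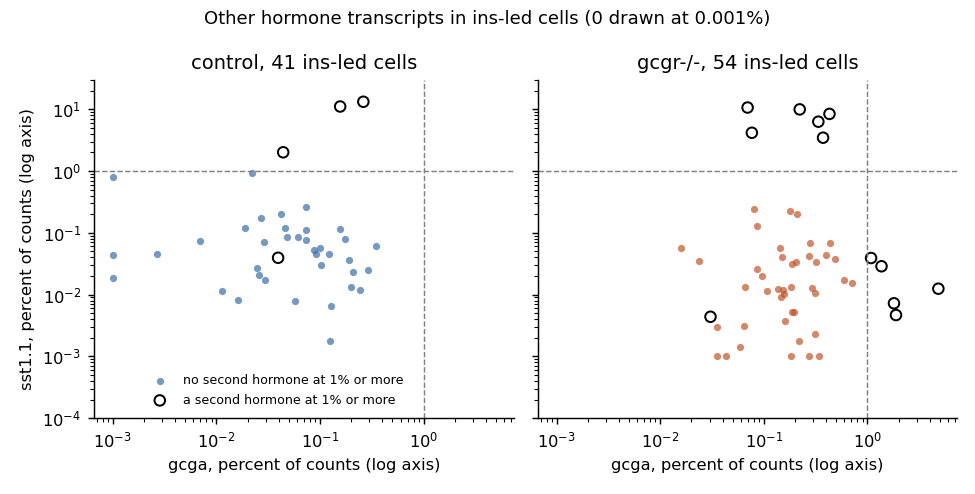
Share of counts (percent, log axes) taken by gcga (x) and sst1.1 (y) in each ins-led cell of the control and gcgr-/- samples; a share of 0 is drawn at 0.001%. Open circles are cells with any second hormone at 1% or more, also one not drawn, such as ghrl. Second hormones reached 1% in 4 control and 12 gcgr-/- cells, and gcga did so in 5 cells, all gcgr-/-.

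The marker genes given for these cells were present in most of them. Counts of pdx1 were found in 35 of the 41 control members and in 43 of the 54 gcgr-/- members, and its summed level was 302 CPM (95% interval 274 to 332) and 181 CPM (163 to 201). Counts of pax6b were found in 38 and 51 cells, and of gck, the glucokinase that sets the glucose sensitivity of β cells, in 35 and 50. Other β-cell genes were sparse at this depth: neurod1 was counted in 14 and 21 cells, isl1 in 8 and 14, nkx2.2a in 9 and 6, slc2a2, a glucose transporter, in 7 and 9, and mnx1 in 3 and 6. The zinc transporter gene slc30a8 gave 27 counts, all in 1 control cell, and 3 counts in the gcgr-/- sample. Neither insb, a second insulin gene, nor kcnj11, a subunit of the ATP-sensitive potassium channel, had any count, and ucn3l, urocortin 3, was at 0 in the control and 0.513 CPM in the gcgr-/- sample. The label therefore rests on ins, the gene by which the cells were chosen. Counts of pdx1, pax6b and gck were present in most members but were not particular to the ins-led cells, as the class comparison below shows.

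Markers of acinar, liver and blood, vessel and immune cells were low. Acinar markers summed to 183 CPM in control and 21.5 CPM in gcgr-/- ins-led cells, with 7 of 15 found in the tables at 0 in both samples. Liver markers summed to 10.5 and 48.2 CPM, with 3 of 8 at 0 in both, and blood, vessel and immune markers to 9.09 and 4.61 CPM, with 9 of 13 at 0 in both. Epithelial markers summed to 841 and 643 CPM, beside 481 and 1686 CPM in sst1.1-led and 781 and 947 CPM in sst1.2-led cells. The δ-cell list, which holds the somatostatin genes, was not low, at 17546 and 11254 CPM, against 227939 and 138582 CPM in sst1.1-led cells. In the control, 1 ins-led cell held 16185 of the 22309 counts of sst1.1. The α-cell list summed to 1105 and 3589 CPM, against 231334 CPM in gcgr-/- glucagon-led cells. The δ- and α-cell lists both hold hormone genes by which the classes were cut. Their contrasts with the other classes thus follow from the rule and are a description only.

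To ask what else set the ins-led cells apart, their summed levels were divided by those of each other class of the same sample, for 629 genes counted in at least 25% of the ins-led cells of both samples. These ratios describe classes cut from the same cells and carry no test. Genes entered through the ins-led cells alone, so genes found almost only in another class could not be called lower below. Outside the hormones, 0 of the 629 genes (0%) were at least 2-fold higher than in every other class in both samples. Closest came npc2, a lysosomal cholesterol carrier, whose lowest ratio was 1.94, followed by the cell adhesion gene dscama at 1.85, mid1ip1b at 1.52, hsdl2 at 1.45, ndufa4l2a at 1.44 and sqstm1 at 1.40. These 6 genes were named after their values were seen.

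Among the 629 genes, the sst1.1-led cells were the nearer of the somatostatin classes by the number past 2-fold in both samples. Against sst1.1-led cells 9 genes (1.43%) were at least 2-fold higher in the ins-led cells of both samples and 7 (1.11%) at least 2-fold lower. Higher genes included slc30a2, a zinc transporter, with ratios of 11.7 in the control and 2.07 in the gcgr-/- sample, the annexin gene anxa5a (4.03 and 2.23), the transcription factor gene pou2f2a (30.5 and 2.80), stat1a (3.76 and 2.55), the granulin gene grn1 (2.99 and 2.94) and ddit3 (2.34 and 2.03). The control ratio of pou2f2a rests on 3.12 CPM in sst1.1-led cells, with an interval of 11.6 to 114. Lower genes included dkk3b, a δ-cell marker of the lists (0.0878 and 0.102), and pnoca, a prepronociceptin gene (0.144 and 0.362). For pdx1, which sst1.1-led cells held at 289 and 280 CPM, the ratios were 1.04 in the control and 0.649 in the gcgr-/- sample. For gck the ratios were 0.726 and 0.986.

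Against sst1.2-led cells, 35 genes (5.56%) were at least 2-fold higher in both samples and 14 (2.23%) at least 2-fold lower. Here pdx1 stood out, with ratios of 24.4 and 15.2, together with the keratin gene krt15 (18.8 and 10.5), lxn, a carboxypeptidase inhibitor gene (7.19 and 33.1), pklr, a pyruvate kinase (2.65 and 9.81), and npc2 (4.73 and 2.86). Where sst1.2-led levels were low, intervals were wide: 11.1 to 66.9 for pdx1 in the control and 14.0 to 103 for lxn in gcgr-/- cells. In the gcgr-/- sample, where glucagon-led cells were numerous enough, 53 genes (8.43%) were at least 2-fold higher in ins-led cells and 52 (8.27%) at least 2-fold lower. These counts use the gcgr-/- sample alone, a laxer rule than that for the somatostatin classes. No such count was made against no-hormone cells. Ratios over glucagon-led cells were 224 for ndufa4l2a, 23.1 for gck, 8.49 for pdx1, 7.93 for the guidance receptor gene robo2, 5.64 for calb1, a calcium-binding protein, and 4.68 for npc2. The glucagon-led level of ndufa4l2a was near the 0.728 CPM that 3 counts make in that class. On the low side the ratio was 0.0107 for pnoca, 0.0577 for dkk3b and 0.141 for rgs5a, a regulator of G protein signalling. Apart from the list genes, these examples were chosen after their values were seen.

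The gene ndufa4l2a, related to a subunit of the mitochondrial respiratory chain, showed the widest spread between classes of the genes just named. Its summed level in ins-led cells was 257 CPM in the control and 217 CPM in the gcgr-/- sample. In other classes it was 83.4 and 17.9 CPM in sst1.1-led, 179 and 5.20 CPM in sst1.2-led, 3.18 and 9.02 CPM in no-hormone cells, and 0.971 CPM in gcgr-/- glucagon-led cells. The control sst1.2-led cells thus came close to the ins-led level, and every other class was lower. For pax6b the classes did not separate: levels were 335 and 1387 CPM in sst1.1-led, 531 and 1220 CPM in sst1.2-led and 737 CPM in glucagon-led cells, against 520 and 1103 CPM in ins-led cells. The α-cell marker npb, a neuropeptide B gene, was at 0.699 and 4.61 CPM in the ins-led cells, against 138 CPM in glucagon-led cells.

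**Figure D3:**
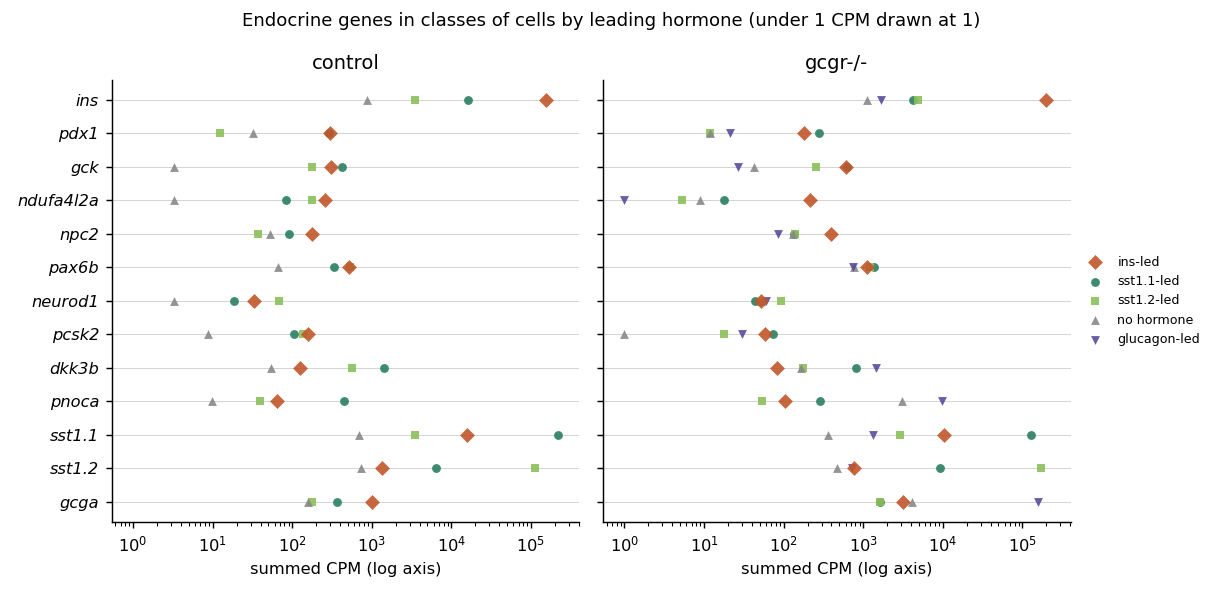
Summed CPM (log axis) of selected marker genes in each class of cells, named by the leading hormone, in the control and gcgr-/- samples; levels under 1 CPM are drawn at 1. Levels of pdx1 are near those of sst1.1-led cells, pnoca and dkk3b are lower in ins-led than in sst1.1-led and glucagon-led cells, and ndufa4l2a is under 1 CPM in glucagon-led cells.

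Between genotypes, 1209 genes had a count in at least 25% of the ins-led cells of at least 1 sample and at least 10 counts over both. Of these, 286 (23.7%) were at least 2-fold higher in the gcgr-/- sample and 219 (18.1%) at least 2-fold lower. All 4 gcgr-/- plates lay above both control plates for 190 genes (15.7%) and below both for 155 (12.8%). The median log2 ratio was 0.03, with quartiles at -0.68 and 0.93. With so large a share of genes past 2-fold between 2 single samples, the levels by plate are given beside the ratios.

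**Figure D4:**
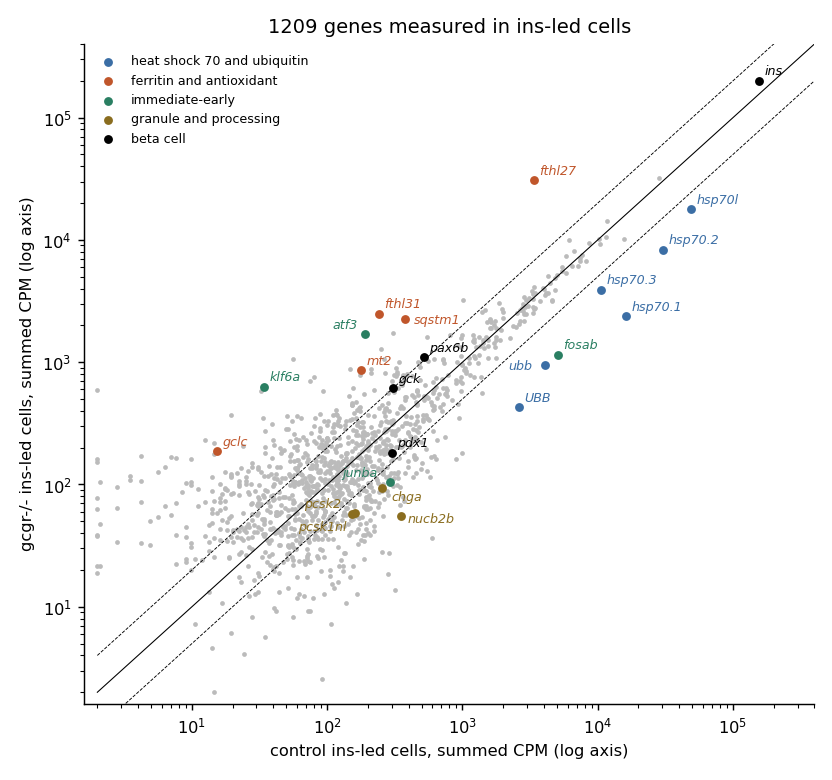
Summed CPM of each of the 1209 measured genes in the ins-led cells of the control (x) and gcgr-/- (y) samples, both on log axes, with lines at equal and at 2-fold levels; values under 2 CPM are drawn at 2. Of these genes 286 lie above the upper line and 219 below the lower one, with hsp70.1 and UBB among the low and fthl27, sqstm1 and klf6a among the high genes.

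Both receptor genes were too sparse to check the genotype. Control ins-led cells gave 1 count of gcgra in 1 cell, gcgr-/- ins-led cells gave 11.8 CPM in 3 cells, and gcgrb was at 0 in both. A 3′ library also cannot show whether a counted transcript is disrupted upstream.

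Glucagon transcripts were higher in the gcgr-/- ins-led cells. Per cell, gcga ran from 0 to 3480 CPM with a median of 614 in the control, and from 159 to 48416 CPM with a median of 1879 in the gcgr-/- sample. Summed levels were 848 CPM on plate A and 1231 on B, and 4948, 1843, 3264 and 2526 CPM on C to F, so the plates did not overlap and the ratio was 3.19 (3.01 to 3.38). Without the members carrying a second hormone the ratio was 2.16. The second glucagon gene, gcgb, stood at 34.9 and 273 CPM, a ratio of 7.80 (5.83 to 10.6). The same direction was found outside the ins-led cells: the gcga ratio was 4.46 in sst1.1-led and 9.31 in sst1.2-led cells, and median gcga in no-hormone cells was 60.6 and 4102 CPM. Glucagon-led cells were 3 of 156 and 106 of 288 passing cells. The part of free RNA from such cells in the gcga of ins-led cells was not tested.

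Among the other hormones, summed sst1.1, sst1.2, sst2 and gip were lower in the gcgr-/- sample, and ghrelin was near equal. The ratios of sst1.1, sst1.2 and ghrelin crossed equal under some alternatives, and sst2 was not among the genes taken under alternatives. Summed sst1.1 gave a ratio of 0.657, but 1 control cell held 16185 of its 22309 counts (72.5%), and with the highest cell of each sample left out the ratio turned to 1.69. By plate, sst1.1 was 6597 and 28565 CPM on A and B and 7769 to 14246 CPM on C to F, an overlap. For sst1.2 the ratio was 0.560, which was 0.348 without plate A and 0.966 without plate B. The sst1.2 ratio stayed below equal under 13 of 15 alternatives. For sst2 there were 651 control and 240 gcgr-/- counts, of which 1 cell each held 273 and 60. All 4 measured genes of the δ-cell list had ratios below equal, as did 584 of all 1209 measured genes. Of these 4, dkk3b had a ratio of 0.660 that was 2.95 in single-hormone cells and stayed below equal under 11 of 15 alternatives. The incretin gene gip was at 214 and 25.6 CPM on A and B and at 7.45, 11.4, 13.5 and 11.3 CPM on C to F, a ratio of 0.0786 (0.0476 to 0.123), which was 0.420 without plate A. Cells led by gip numbered 7 in the control and 2 in the gcgr-/- sample. Ghrelin was at 299 and 314 CPM, a ratio of 1.05 that was 8.56 without plate B and 0.240 without plate F. Thus 1 of the 2 measured ε- and gip-cell genes was at least 2-fold lower, beside 18.1% of all measured genes.

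Among the marker transcription factors, pdx1 and pax6b differed in opposite directions but with overlapping plates. Levels of pdx1 were 363 and 213 CPM on A and B and 201, 116, 300 and 117 CPM on C to F, a ratio of 0.601 (0.521 to 0.693), which was 0.851 without plate A and passed 2-fold without plate B (0.499) and without plate E (0.486). Levels of pax6b were 546 and 483 CPM on A and B and 294, 992, 1379 and 1782 CPM on C to F, a ratio of 2.12 (1.95 to 2.31). Plate C lay below both control plates for pax6b, and its ratio was 1.63 without plate F and 1.38 with single-hormone cells alone. In the other classes pdx1 had genotype ratios of 0.972 in sst1.1-led and 0.970 in sst1.2-led cells, and pax6b of 4.14 and 2.29. Of 9 measured islet transcription factors of 27 listed, 2 were at least 2-fold higher and 0 lower, near or below the 23.7% and 18.1% of all genes, with a median log2 ratio of 0.66. The second was foxa2, a factor of endoderm and islet development, at 28.0 and 149 CPM, with every gcgr-/- plate above both control plates. Its ratio of 5.32 (3.81 to 7.6) dropped to 1.68 when cells were thinned to 5000 counts each, which left out 1 gcgr-/- cell of lower depth.

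The β-cell list had 9 measured genes of 16, of which 1, pax6b, was at least 2-fold higher and 1, the convertase gene pcsk2, at least 2-fold lower. Among all measured genes 23.7% were higher and 18.1% lower by that much. The median log2 ratio of the β-cell list was -0.50. The gene that best kept its plates apart was gck: levels were 329 and 273 CPM on A and B and 577, 412, 1007 and 475 CPM on C to F. Its ratio was 1.99 (1.78 to 2.23), and ratios in sst1.1-led and sst1.2-led cells were 1.47 and 1.45. For slc2a2 the level was 37.0 CPM in the control and 8.20 CPM in the gcgr-/- sample, from 53 and 16 counts. It was counted in too few cells to pass the filter, and 1 control cell held 35 of its counts. Of the 3 measured α-cell genes 2, the glucagon genes, were at least 2-fold higher, and of the 4 measured δ-cell genes 1 was at least 2-fold lower. The shares over all measured genes were 23.7% and 18.1%. The glucagon and somatostatin genes of these lists were also used by the membership rule.

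Genes of the secretory granule held both lower and higher members in the gcgr-/- cells. Of 9 measured members of 22 list genes in the tables, 4 were at least 2-fold lower and 2 higher, where 18.1% and 23.7% of all measured genes were, and the median log2 ratio was -0.59. The granule protein gene chga, chromogranin A, was at 240 and 275 CPM on A and B and at 210, 50.1, 0 and 86.7 CPM on C to F. Its ratio was 0.365 (0.303 to 0.437; 0.189 without plate C), and 25 of the 41 control members but 13 of the 54 gcgr-/- members had a count. The proconvertase inhibitor gene pcsk1nl was at 160 and 142 CPM on A and B and between 40.6 and 77.3 CPM on C to F, a ratio of 0.373. All gcgr-/- plates were thus below the control plates for both genes. The convertase gene pcsk2 had a similar ratio of 0.365 with overlapping plates, 128 and 207 CPM against 9.10 to 135 CPM. Convertase 1, pcsk1, which with pcsk2 cuts proinsulin, was at 55.2 and 39.0 CPM. Nucleobindin, nucb2b, was at 468 and 178 CPM on A and B and at 24.2, 41.0, 11.3 and 136 CPM on C to F, a ratio of 0.159 (0.128 to 0.196) that was 0.312 without plate A and 0.0727 without plate F.

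Against that direction, the granin gene scg2b was higher, with 22.4 and 107 CPM and overlapping plates, and the insulinoma antigen gene ptprnb had a ratio of 2.11, also with overlapping plates, which was 1.26 without plate B. The granin-like gene vgf had no count in the control and 268 counts in 13 of 54 gcgr-/- cells, a ratio of 65.5 when the control is set at a floor of 3 counts. It failed the filter on cells and is not among the measured genes. The genotype ratios of chga in sst1.1-led and sst1.2-led cells were 0.466 and 0.0242, and those of pcsk1nl 0.632 and 0.532, while no-hormone cells had higher levels of both in the gcgr-/- sample. Of 3 measured exocytosis genes of 19 in the tables, 1 was at least 2-fold higher and 1 lower, where 23.7% and 18.1% of all measured genes were. Of 6 measured genes of 29 in the tables for glucose use and excitability, 0 were at least 2-fold higher and 2 lower, beside the same shares. Their median log2 ratio was -0.65. The lower ones included mpc1, a subunit of the mitochondrial pyruvate carrier, at 164 and 55.4 CPM, with a ratio of 0.338 that was 0.569 without plate A. Glycolytic gapdhs was at 1862 and 3021 CPM, a ratio of 1.62 with no overlap of plates.

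The hsp70 and polyubiquitin genes, induced by heat and by misfolded protein, were lower on every gcgr-/- plate than on either control plate. Per cell, hsp70.1 ran from 281 to 66036 CPM with a median of 17986 in the control and from 0 to 33818 CPM with a median of 433 in the gcgr-/- sample. Its levels were 17916 and 13719 CPM on A and B and 4501, 1129, 169 and 3150 CPM on C to F, a ratio of 0.147 (0.143 to 0.152). Single cells overlapped, but the plates did not. Ratios were 0.273 for hsp70.2, 0.370 for hsp70.3 and 0.363 for hsp70l, and 0.163 for UBB and 0.234 for ubb. These hsp70 genes are near-identical copies of one another, as are the polyubiquitin genes, so the division of reads among copies is uncertain, and the common direction is not separate evidence from each gene.

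Chaperones as a whole did not follow. Of 28 measured of 37 in the tables, 11 were at least 2-fold higher and 7 at least 2-fold lower, beside 23.7% and 18.1% of all genes. The plates did not overlap for 7 higher and 9 lower genes, beside 15.7% and 12.8%, while the summed level of the list was 154349 CPM in the control and 81890 CPM in the gcgr-/- sample. Higher genes included hspa4a (ratio 2.77) and hsph1 (3.28), which exchange nucleotides on Hsp70, and hspd1 of the mitochondrial chaperonin (3.21). Another was serpinh1b, the collagen chaperone (11.3, from 9.09 and 103 CPM). After thinning to 5000 counts per cell the ratio was 1.86 for hsph1 and 1.71 for hspd1. Without plate A it was 1.85 for hspa4a. The Hsp90 gene hsp90aa1.2 was at 28211 and 32193 CPM, a ratio of 1.14 with overlapping plates. Constitutive hspa8 had a ratio of 1.48. Ratios of hsp70.1 were also low in other classes, at 0.0635 in sst1.1-led, 0.0325 in sst1.2-led and 0.497 in no-hormone cells. UBB gave 0.0873, 0.105 and 0.910. The list as a whole was not low in every gcgr-/- class. Its control and gcgr-/- sums were 136197 and 54889 CPM in sst1.1-led and 190132 and 55765 CPM in sst1.2-led cells. In no-hormone cells they were 115882 and 175352 CPM, and gcgr-/- glucagon-led cells held 151271 CPM. The part of tissue handling in these values was not tested, and each sample's handling cannot be told apart from its genotype.

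Ferritin and antioxidant genes included several with high ratios. Of 20 measured of 40 in the tables, 7 were at least 2-fold higher and 1 at least 2-fold lower, beside 23.7% and 18.1% of all genes, the median log2 ratio was 0.58, and the list summed to 7852 CPM in the control and 41247 CPM in the gcgr-/- sample. In the gcgr-/- sample most of that sum was fthl27, a ferritin heavy chain-like gene for iron storage. Per cell it ran from 0 to 14667 CPM with a median of 1950 in the control, and from 110 to 115341 CPM with a median of 21895 in the gcgr-/- sample. Plates A and B had 3235 and 3542 CPM, and C to F had 42158, 23938, 35776 and 20487 CPM, a ratio of 9.14 (8.87 to 9.41). Its copy fthl31 had a ratio of 10.3 (9.28 to 11.6), though reads could be divided between these ferritin copies in either direction. Copy fthl28 had a ratio of 1.52 and overlapping plates.

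The autophagy receptor gene sqstm1 had a count in 24 of the 41 control members and in 53 of the 54 gcgr-/- members, with medians of 78.0 and 1828 CPM. Its plates held 401 and 345 CPM, then 2882, 2275, 1715 and 2049 CPM, a ratio of 5.96 (5.45 to 6.53). The glutathione synthesis gene gclc had a ratio of 12.2 (7.96 to 19.8; 2.40 after thinning), and the metallothionein gene mt2 of 4.87 (4.26 to 5.58; 10.5 without plate A and 3.18 without plate F), both without overlap of plates. The peroxiredoxin gene prdx2 and the ferritin gene fth1a, with ratios of 2.14 and 1.93, also kept the plates apart. Plates overlapped for the other 13 measured members, among them the stress regulator genes nfe2l2a and keap1a had ratios of 0.468 (0.779 without plate A) and 1.11, and superoxide dismutases sod1 and sod2 of 0.847 and 1.81. In sst1.1-led and sst1.2-led cells the ratio of fthl27 was 13.1 and 7.21 (2.50 in no-hormone cells), of sqstm1 16.5 and 15.3 and of mt2 6.41 and 8.30. High levels of these genes in the gcgr-/- sample were thus not particular to ins-led cells.

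**Figure D5:**
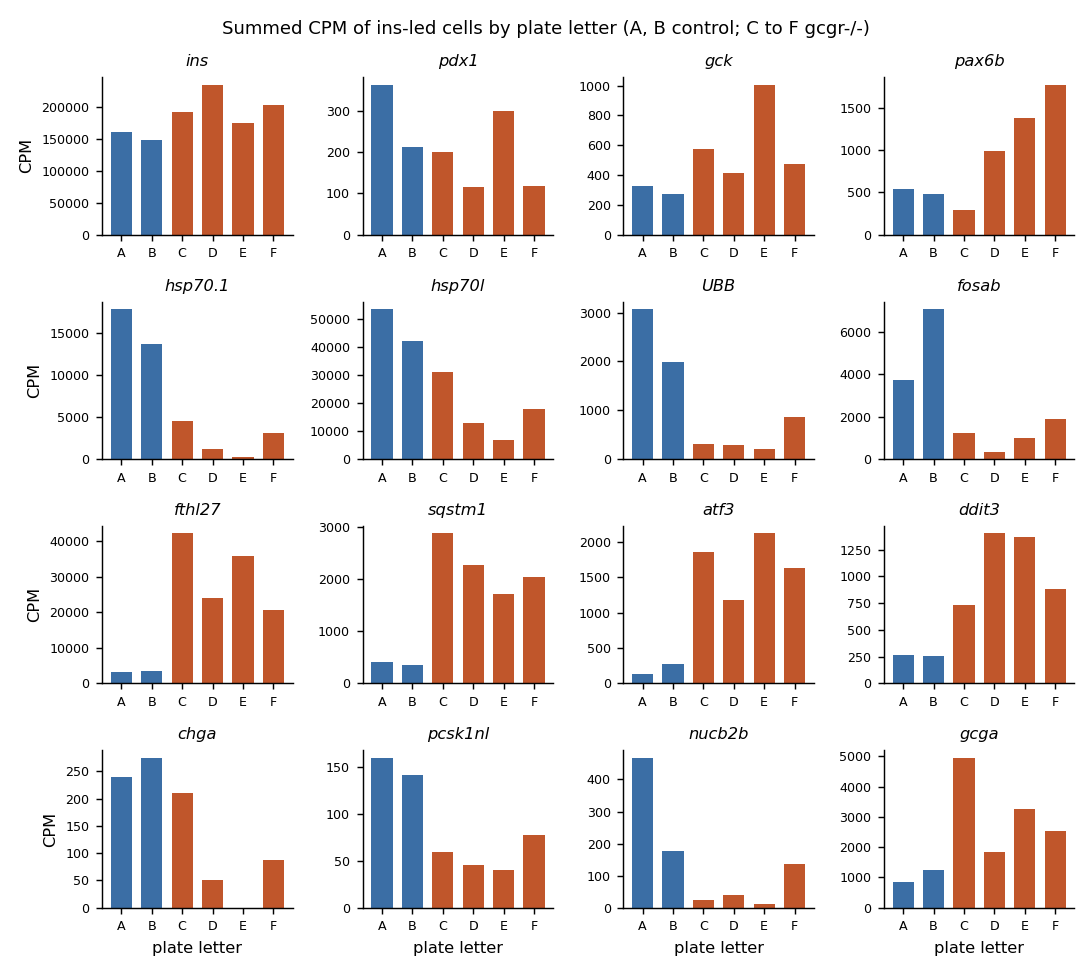
Summed CPM of single genes in ins-led cells (bars from 0, a linear axis of its own for each gene) by plate letter, control plates A and B and gcgr-/- plates C to F. The control plates sit above all gcgr-/- plates for hsp70.1 (13719 and 17916 against 169 to 4501 CPM) and below all of them for fthl27 (3235 and 3542 against 20487 to 42158 CPM).

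Immediate-early genes, which cells switch on within minutes of a stimulus, split in direction. Of 16 measured of 37 in the tables, 6 were at least 2-fold higher and 2 at least 2-fold lower, beside 23.7% and 18.1% of all genes, with a median log2 ratio of 0.56. The AP-1 gene fosab was lower, at 3725 and 7071 CPM on A and B and at 1212, 334, 967 and 1906 CPM on C to F, a ratio of 0.225 (0.215 to 0.236), and 1 control cell held 32.3% of the control counts. Its partner junba had a ratio of 0.361. In contrast atf3, a stress-induced repressor, had a count in 15 of the 41 control members and in 49 of the 54 gcgr-/- members, with 128 and 280 CPM on A and B and 1174 to 2121 CPM on C to F, a ratio of 8.95 (7.91 to 10.2). The ratio was 18.4 for klf6a, 10.3 for gadd45ba, 5.57 for nfkbiaa and 3.56 for ier2a, each without overlap of plates. For klf6a, gadd45ba and nfkbiaa the control counts were few and uneven between plates. Without plate A the ratio was 8.01 for klf6a, 29.4 for gadd45ba and 2.41 for nfkbiaa. Without plate B it was 177 for klf6a, 7.07 for gadd45ba and 60.0 for nfkbiaa. The ier2a ratio moved little, to 3.62 without plate A and 3.52 without plate B. A single control cell held 57.1% of the control counts of klf6a and 49.3% of those of nfkbiaa.

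Genes for protein folding in the endoplasmic reticulum, where proinsulin folds, were called about as often as all measured genes. Of 23 measured of 50 listed, 4 were at least 2-fold higher and 3 at least 2-fold lower, beside 23.7% and 18.1% of all genes, and the median log2 ratio was 0.30. All gcgr-/- plates were above both control plates for 5 and below them for 1, beside 15.7% and 12.8% of all genes. The main lumenal chaperone gene hspa5 was counted in every member, with medians of 6439 and 9087 CPM per cell and a ratio of 1.61 (1.57 to 1.65). The related hsp90b1 had a ratio of 1.84. The unfolded-protein-response gene ddit3, which encodes CHOP, was counted in 20 of 41 and 47 of 54 cells. Its plates held 266 and 258 CPM, then 730, 1402, 1370 and 879 CPM, a ratio of 4.06 (3.64 to 4.54). The chaperone gene hyou1 had a ratio of 6.02 (4.75 to 7.71). On the low side was sec11a, a signal peptidase subunit, at 375 and 125 CPM (0.332), while xbp1 had overlapping plates and a ratio of 1.86. The ddit3 ratio was 4.68 in sst1.1-led and 3.37 in sst1.2-led cells.

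The genes with the widest ratios were of mixed function. Among genes at 100 CPM or more in the sample where they were higher, and with at least 10 counts in the other, the 10 highest ratios ran from 12.2 to 23.8 and belonged to mrnip, gpkow, prpf18, gls2b, foxj2, klf6a, chmp4ba, anxa11a, cpt1ab and gclc. Single cells held much of some: 82.5% of the gcgr-/- counts of gls2b, a glutaminase, and 54.4% of those of foxj2 came from 1 cell each. In the control, 1 cell held 90.9% of the counts of gpkow, 80% of those of mrnip and 76.2% of those of cpt1ab. With the highest cell of each sample left out, the ratio was 158 for gpkow, 93.6 for mrnip and 52.6 for cpt1ab. Without plate A it was 8.71 for gpkow, 10.8 for mrnip and 6.38 for cpt1ab, and without plate F it was 2.27 for gls2b. Leaving out a plate moved the others by more than 1.5 times as well, except gclc: ratios ran down to 6.75 for foxj2, 8.01 for klf6a, 9.15 for anxa11a, 9.50 for prpf18 and 11.4 for chmp4ba. Plates overlapped for prpf18, a splicing factor, for foxj2 and for cpt1ab, the carnitine palmitoyltransferase of fatty acid oxidation. The 10 lowest ratios ran from 0.0433 to 0.127 and belonged to rtraf, psmd14, tomm20b, znf593, commd7, gip, cish, sf3a1, dynlrb1 and as3mt, all with every gcgr-/- plate below both control plates. The few gcgr-/- counts of rtraf, commd7 and as3mt came mostly from 1 cell each (96.3%, 96.0% and 92.9%). For znf593 and psmd14, 1 cell each held 57.1% and 52.1% of the gcgr-/- counts. The proteasome subunit gene psmd14 was at 599 and 36.4 CPM, the mitochondrial import receptor gene tomm20b at 283 and 18.5 CPM, and cish, which encodes a suppressor of cytokine signalling, at 284 and 27.7 CPM.

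Genes with almost no control counts stand outside that ranking. The gene lonrf1l, a RING-finger protein gene, had 0 counts in the control members and 1166 counts in 35 gcgr-/- members. Its levels were 1145, 478, 379 and 326 CPM on C to F, and the ratio was 285 with the control set at 3 counts. The repressor gene bach1b, whose mammalian counterpart restrains ferritin and antioxidant genes, had 1 control count and 298 gcgr-/- counts in 16 members, a ratio of 219 with an interval from 38.9 to 8661. The NF-κB subunit genes relb and nfkb2 had 2 control counts each, against 313 and 124 counts, both in 17 gcgr-/- members. All 4 plates of the gcgr-/- sample lay above both control plates for each of these genes. In sst1.1-led cells lonrf1l was at 32.0 CPM in the control and 305 CPM in the gcgr-/- sample, bach1b at 0 and 138 CPM, relb at 14.8 and 31.9 CPM and nfkb2 at 2.34 and 96.3 CPM. These 4 genes were named after their values were seen.

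Ribosomal protein genes were near equal between the samples. Of 79 measured ribosomal protein genes of 82, 1 was at least 2-fold higher and 0 lower, with a median log2 ratio of -0.04 and summed levels of 231356 and 224302 CPM. Of 12 measured mitochondrially encoded genes of 13, 1 was at least 2-fold higher and 1 lower, with a median log2 ratio of -0.27. Of all measured genes, 23.7% were at least 2-fold higher and 18.1% at least 2-fold lower. Only 3 of 35 replication and mitosis genes were measured, of which the tubulin gene tubb2b had a ratio of 2.90 (2.68 to 3.14) and the chromatin genes hmgb2a and hmgb2b 0.615 and 0.932.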

How the data were processed

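Per the paper's methods, single GFP-positive cells went through a modified Smart-seq2 protocol that reads transcript 3′ ends. The submitters' processing notes name STAR, Trim Galore, featureCounts and the build GRCz11, without versions. The authors deposited raw counts per gene and cell, counted over coding sequence, with no normalisation. Collapsing of molecular identifiers is not given in the sources used here, so counts were taken as reads, and intervals cover counting error only and are too narrow. An additional deposited count table, in which the authors had removed potential β and δ cells by a rule not stated, was used only to see which members it kept.

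The tables hold 24900 genes, and 17 gene names spelled differently between them were joined by position. Cells were kept, classed and counted with Python 3.11.15, numpy 2.4.6, pandas 2.3.3 and scipy 1.17.1, and drawn with matplotlib 3.10.9. Cells needed at least 500 genes and at most 10% mitochondrial counts, and a class was named by the highest of 8 hormone genes at 1% of counts or more. Counts were summed over the cells of a class and sample and scaled to a total of 1000000 (CPM). Shares have exact Clopper-Pearson 95% intervals, levels exact Poisson intervals and ratios exact conditional intervals. A gene was measured between genotypes with a count in at least 25% of the ins-led cells of at least 1 sample and at least 10 counts over both, and a class was compared with at least 10 cells. A level of 0 was set at 3 counts per sample for ratios. Doublets were not called. The computations were tested on simulated data.

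The members and the gene lists (β-, α-, δ-, ε- and gip-cell, acinar, liver, epithelial and blood, vessel and immune markers, islet transcription factors, granule, exocytosis, glucose use, endoplasmic reticulum, immediate-early, chaperone, ferritin and antioxidant, replication, ribosomal and mitochondrial genes) were chosen with earlier results of these data known. Genes named are those of the lists, the 10 highest and 10 lowest genotype ratios (100 CPM or more where higher, with counts in at least 25% of those ins-led cells, and at least 10 counts where lower), and genes said to be chosen after their values were seen. Alternatives were other filters on cells and genes, each plate left out, thinning to 5000 counts per cell, other scalings and single-hormone cells. Leaving out the cell with the most counts of a gene, and all alternatives for the class pairs, were chosen after seeing the data.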

Additional observations from a re-analysis of the deposited data

Results flagged for a closer look

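For 5 of 112 selected genes, the genotype ratio in ins-led cells lay past 2-fold on the opposite side from a somatostatin-led class. The difference was not tested, since each genotype is 1 sample. The 112 genes include the 10 highest and 10 lowest ratios in ins-led cells, among them prpf18, sf3a1 and dynlrb1. Weaker or opposite ratios in another class can follow from that choice. No share over all measured genes was taken, so the 5 have no background to be set against. The ratio of nucb2b, a nucleobindin gene, was 0.159 in ins-led cells and 5.71 (3.11 to 11.6) in sst1.2-led cells, on 11 control and 173 gcgr-/- counts. For sf3a1, a splicing factor gene, it was 0.111 in ins-led and 6.89 (2.58 to 25.9) in sst1.2-led cells, on 4 control and 76 gcgr-/- counts. For dynlrb1, a dynein light chain gene, it was 0.119 in ins-led and 2.53 (1.86 to 3.47) in sst1.1-led cells. For prpf18, a splicing factor gene, it was 19.1 in ins-led and 0.466 (0.412 to 0.527) in sst1.1-led cells, where the level was 576 CPM in the control and 268 CPM in the gcgr-/- sample. In ins-led cells the plates overlapped for prpf18, and 1 cell held 35.9% of its gcgr-/- counts. For slc30a8, the zinc transporter gene of insulin granules, the ratio was 0.0815 in ins-led cells, where all 27 control counts came from 1 cell. This gene was too sparse to be among the measured genes. The sst1.2-led cells had 0 control and 31 gcgr-/- counts, a ratio of 3.75 with the control set at 3 counts and a lower limit of 2.87.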

How the results depend on the processing

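No paired analysis was possible because each genotype is 1 sample. The shares of ins-led cells moved by less than their intervals under every alternative run. Ratios under the alternatives were taken for 112 selected genes, not for all 467 genes of the lists and rankings. Of these 112, 73 were past 2-fold. Of the 73, 72 stayed on the same side of equal under every alternative and 53 stayed past 2-fold. The exception was mnx1, at 2.62 and too sparse to be measured, which turned to 0.58 without plate F and to 0.53 in single-hormone cells. Against 286 genes at least 2-fold higher, thinning to 5000 counts per cell gave 150 of 636 measured and no filter on the share of cells gave 3046 of 7985. Against 219 lower, these gave 92 and 2520. Leaving out plate B gave 352 of 1393 and leaving out plate A gave 273 of 1286. This count thus varied with the control plates kept, as did the set of genes measured. Of genes past 2-fold, 56.6% were higher, and 48.8% without plate B. Genes at least 2-fold above every other class, 0 as reported, numbered 2 with at least 750 genes per cell, 2 with a 5% hormone minimum, 1 after thinning, 1 without plate A, 2 without plate B, 2 with the mean of per-cell CPM, 1 in single-hormone cells and 51 with no filter. For the pairs of classes, genes past 2-fold in either direction against sst1.1-led cells numbered 16, and 37 with at least 750 genes, 34 with a 5% minimum, 7 after thinning, 27 without plate A, 29 without plate B and 698 with no filter. Against sst1.2-led cells they numbered 49, and 76, 22 and 785 with at least 750 genes, thinning and no filter, and against glucagon-led cells 105, and 50 and 1522 with thinning and no filter. The cause of these differences was not tested. The median log2 ratio of 0.03 moved to 0.11 with totals without hormones, to 0.19 with no filter, to 0.13 without each gene's highest cell and to -0.07 without plate B. Low genes were limited by depth: a floor of 3 counts is 2.10 CPM in the control and 1.54 CPM in the gcgr-/- ins-led cells.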
